A study of Homo sapiens with 24 samples.

Results

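The 7 UGT2B genes described here, UGT2B4, UGT2B7, UGT2B10, UGT2B11, UGT2B15, UGT2B17 and UGT2B28, encode UDP-glucuronosyltransferases of family 2B and were taken by gene symbol from every expression table of the study. All 7 were listed among the 22227 genes of the ligand tables and the 23028 genes of the siRNA tables, and all 7 passed the filters on low values in both (15555 and 20369 genes tested). RNA was measured by poly(A) RNA-seq in LNCaP, a single prostate cancer cell line grown from a lymph node metastasis, which responds to androgens. In the ligand experiment the cells received vehicle, 10 nM dihydrotestosterone (DHT, a potent natural androgen) or 10 μM enzalutamide (MDV, an antiandrogen used in the clinic). Both ligands were given for 4 h or 24 h, with 2 replicates for each of the 4 treated conditions. The paper describes hormone-depleted serum for its ChIP and RT-PCR cells, and its RNA-seq methods name no serum. The labels name 4 vehicle replicates, which were analysed as 2 samples because 3 of the 4 vehicle columns are headed as replicate 1. In the siRNA experiment they were first transfected with a non-targeting control pool (siControl) or a pool against GATA2 (siGATA2), a transcription factor of the prostate epithelium, and were given 25 μM enzalutamide or vehicle over 24 h, with 3 replicates for each of the 4 conditions. The ligand vehicle cells carry no time label, so the same libraries served as the reference at 4 h and at 24 h, and all comparisons with vehicle share them.

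UGT2B enzymes sit in the endoplasmic reticulum and transfer glucuronic acid from the cofactor UDP-glucuronic acid to small lipophilic molecules, which makes them water-soluble and ready for export. In prostate cells UGT2B15 and UGT2B17 are known as the enzymes that conjugate DHT and its reduced metabolites androsterone and androstanediol, and so end the androgen signal inside the cell. The other members are best known from the liver and other tissues, where UGT2B7 conjugates opioids, steroids and many drugs, UGT2B4 conjugates bile acids and UGT2B10 conjugates nicotine and other amines. UGT2B28 accepts steroids and bile acids, while the substrates of UGT2B11 are less clear.

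All 7 genes lie in one cluster on chromosome 4, spanning 989 kb in GRCh38 (GENCODE release 29). UGT2B17 lies at chr4:68537184-68568527 and UGT2B15 at chr4:68646630-68670628, both on the minus strand. UGT2B10 (chr4:68815993-68831196) and UGT2B7 (chr4:69051363-69112987) follow on the plus strand. UGT2B11 (chr4:69199951-69214731, minus strand), UGT2B28 (chr4:69280499-69295050, plus strand) and UGT2B4 (chr4:69480165-69526014, minus strand) complete the set. Each coding sequence is split over 6 exons and measures 1584 to 1590 bases. The submitters' reads were aligned to hg19, and their tables carry no coordinates.

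The copies resemble each other closely, which bears on every value below. Over the coding sequence UGT2B11 and UGT2B28 were identical at 97.0% of aligned bases and differed at 47, UGT2B15 and UGT2B17 at 96.5% with 55 differing, and UGT2B10 and UGT2B11 at 95.0% with 79 differing. The least alike pair, UGT2B15 and UGT2B28, still matched at 83.9%. When each transcript was divided into all its 50-base stretches, 40.9% of those of UGT2B11, 35.7% of UGT2B28, 31.7% of UGT2B10 and 27.8% of both UGT2B15 and UGT2B17 also occurred in another gene, against 6.75% of UGT2B7 and 3.16% of UGT2B4. For UGT2B15 and UGT2B17 almost all of these stretches were shared between that pair (27.5%), for UGT2B28 most were shared with UGT2B11 (20.7%), and for UGT2B11 and UGT2B10 the largest shares were with the pseudogenes UGT2B25P (22.4%) and UGT2B27P (15.2%). The read length is not given in the sources used here, so 50 bases stands for a short read only, and the split of reads between copies is uncertain. For that reason the pair UGT2B15 and UGT2B17, and the set UGT2B10, UGT2B11 and UGT2B28, were also tested as sums. Neither sum holds the pseudogenes. The second is mostly UGT2B11 in both experiments, so it cannot check a change of UGT2B10 or UGT2B28 alone.

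**Figure D1:**
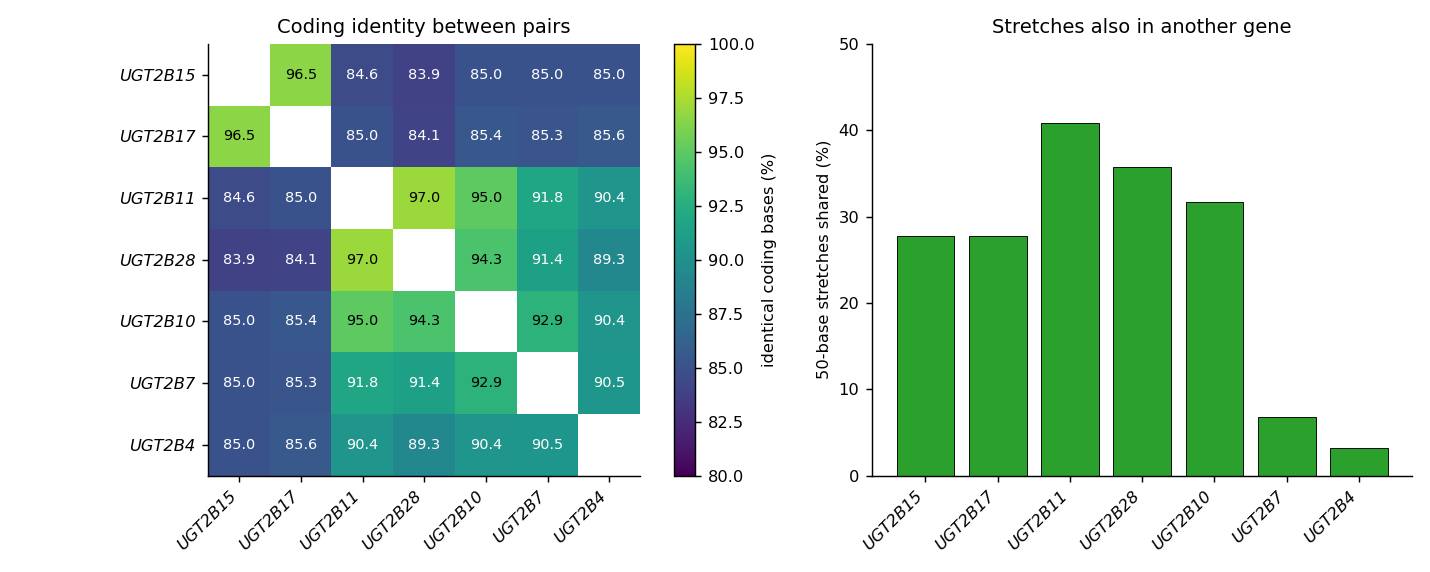
Left, share of identical coding bases for each pair of the 7 UGT2B genes (per cent, colour scale from 80 to 100). Right, share of 50-base stretches of each transcript that also occur in another gene (per cent). UGT2B11 with UGT2B28 (97.0%) and UGT2B15 with UGT2B17 (96.5%) are the closest pairs, and UGT2B4 (3.16%) and UGT2B7 (6.75%) share the fewest stretches.

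A pair of windows of 60 coding bases show where a read can and cannot tell the genes apart. They were the most and the least alike of 1092 windows, and capitals mark each base that differs from the most frequent base at its position among the 7 genes. The most alike window lies in exon 5 (mean pair identity 97.8%), where UGT2B10, UGT2B11 and UGT2B28 were the same at every base and UGT2B15 and UGT2B17 differed at 1.
UGT2B11 (chr4:69204574-69204633, minus strand): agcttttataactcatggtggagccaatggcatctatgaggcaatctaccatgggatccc
UGT2B28 (chr4:69290608-69290667, plus strand): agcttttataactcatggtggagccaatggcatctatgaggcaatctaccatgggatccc
UGT2B15 (chr4:68654181-68654240, minus strand): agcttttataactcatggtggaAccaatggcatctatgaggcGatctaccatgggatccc
UGT2B17 (chr4:68550821-68550880, minus strand): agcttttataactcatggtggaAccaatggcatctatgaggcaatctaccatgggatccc

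The least alike window lies in exon 1 (mean pair identity 76.3%), the exon that encodes most of the substrate-binding part of these enzymes. There UGT2B11 and UGT2B28 differed at 2 bases, UGT2B10 and UGT2B11 at 5, and UGT2B15 and UGT2B17 at 7.
UGT2B10 (chr4:68816346-68816405, plus strand): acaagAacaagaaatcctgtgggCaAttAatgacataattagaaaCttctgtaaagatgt
UGT2B11 (chr4:69214334-69214393, minus strand): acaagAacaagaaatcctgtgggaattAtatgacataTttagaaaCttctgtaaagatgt
UGT2B28 (chr4:69280830-69280889, plus strand): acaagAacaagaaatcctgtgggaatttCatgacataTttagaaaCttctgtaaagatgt
UGT2B15 (chr4:68670227-68670286, minus strand): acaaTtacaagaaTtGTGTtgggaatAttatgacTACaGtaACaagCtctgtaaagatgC
UGT2B17 (chr4:68568093-68568152, minus strand): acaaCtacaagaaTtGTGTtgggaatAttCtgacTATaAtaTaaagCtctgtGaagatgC

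The upstream sequences of 3 members are shown because these genes moved in different ways below. RefSeq (GRCh38.p14) gave the 250 bases before the start for 4 members, UGT2B7, UGT2B10, UGT2B11 and UGT2B15. They were searched on both strands, and matches are in capitals. The forkhead core TAAACA, a sequence bound by FOXA1, occurred in 4 of 4 members, at positions -182 to -175 from the start, and in 11% of 35116 promoter windows. The androgen response half-site AGAACA occurred in 1 of 4, UGT2B15 (position -172), and in 12.4% of all windows. The GATA site AGATAA, found here on the other strand as TTATCT, occurred in 3 of 4 (all but UGT2B15) and in 9.17% of all windows. A full androgen response element (both half-sites with a spacer) and the HNF1 palindrome occurred in 0 of 4. As exact strings they occurred in only 0.00285% and 0.0057% of all windows, so their absence here says little about looser forms of these sites. The 4 windows resemble each other (66.2% to 93.1% of aligned bases identical between pairs), so their matches are not independent of each other. A match describes the letters only and says nothing about binding.
UGT2B15 (chr4:68670653-68670902, minus strand): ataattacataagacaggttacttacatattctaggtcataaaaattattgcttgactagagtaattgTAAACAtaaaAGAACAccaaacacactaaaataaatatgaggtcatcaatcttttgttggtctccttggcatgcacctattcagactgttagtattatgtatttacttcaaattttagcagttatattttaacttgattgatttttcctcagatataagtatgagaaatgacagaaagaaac
UGT2B11 (chr4:69214749-69214998, minus strand): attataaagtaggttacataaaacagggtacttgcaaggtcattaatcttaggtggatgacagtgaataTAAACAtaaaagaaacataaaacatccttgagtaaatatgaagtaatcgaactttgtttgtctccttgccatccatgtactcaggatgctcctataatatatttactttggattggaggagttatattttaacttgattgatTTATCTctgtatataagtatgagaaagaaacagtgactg
UGT2B10 (chr4:68815744-68815993, plus strand): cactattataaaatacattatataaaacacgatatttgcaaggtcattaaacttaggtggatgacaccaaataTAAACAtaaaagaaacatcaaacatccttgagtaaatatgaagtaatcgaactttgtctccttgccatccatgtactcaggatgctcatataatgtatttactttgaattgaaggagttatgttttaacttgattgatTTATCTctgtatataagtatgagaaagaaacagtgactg

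These upstream windows of UGT2B10 and UGT2B11 matched at 93.1% of aligned bases, while UGT2B15 matched UGT2B11 at 74.2% and UGT2B10 at 73.7%.

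The ligand libraries held 38894876 to 59985287 estimated counts and the siRNA libraries roughly 58800000 to 76800000 mapped reads, as inferred from the smallest steps of their values. All 8 luminal prostate markers (such as KLK3 and KRT8) reached 1 CPM (counts scaled to the library's total) or RPKM (reads scaled to transcript length and library total) in some library of each experiment, while 0 of 3 basal markers did. Of 5 hepatocyte markers 1 reached 1 CPM in the ligand libraries and 0 reached 1 RPKM in the siRNA libraries. Of 3 neuroendocrine markers 2 reached 1 CPM (summed level 41.4 to 62.7 CPM) and 1 reached 1 RPKM (26.1 to 51.9 RPKM). Of 3 stromal markers 1 did so in each experiment (14.4 to 28.5 CPM and 9.62 to 16.3 RPKM), as did 1 of 3 immune markers (1.20 to 2.87 CPM and 3.54 to 12.2 RPKM). Their part in the UGT2B values was not tested. The 4 deposited vehicle columns were 3 headed replicate 1 and 1 headed replicate 2. The 3 were summed, since their counts differed among themselves less (mean chi-square per gene 1.51 to 1.54) than from replicate 2 (3.42 to 3.59), although above the value near 1 that counting alone would give. Whether the 3 are separate cultures or runs of one is not known, and the labels only number 4 vehicle replicates. The calls that change with all 4 as separate samples are therefore given beside the results. Because these are bulk samples, fewer cells expressing a gene and less RNA per cell cannot be told apart.

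UGT2B15 and UGT2B17 carried most of the UGT2B message in LNCaP cells. Per kilobase of transcript in the ligand vehicle cells, UGT2B15 stood at 202.7 CPM and UGT2B17 at 149.2 CPM, which made up 51.6% and 37.9% of the total of the 7 genes. UGT2B11 followed at 27.5 CPM per kilobase, UGT2B10 at 9.63, UGT2B28 at 3.20, UGT2B4 at 0.587 and UGT2B7 at 0.323, and no neighbours in this order overlapped between their 2 libraries. Over the 10 ligand libraries UGT2B15, UGT2B17 and UGT2B11 held 96.1% of the reads of the set. In the siControl vehicle cells the order per length was UGT2B17 (29.2 RPKM), UGT2B15 (27.03), UGT2B11 (17.8), UGT2B28 (2.12), UGT2B10 (0.789), UGT2B7 (0.321) and UGT2B4 (0.0347), with overlap only between UGT2B17 and UGT2B15. The tables of the 2 experiments were made in different units and are compared within each experiment only.

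The main question of the ligand experiment was what the androgen and the antiandrogen each do to transcription. After 24 h of DHT the set split. The DHT-conjugating enzymes UGT2B15 and UGT2B17 fell to 45.5% and 52.1% of their vehicle levels, whereas UGT2B28 rose several-fold and UGT2B11 rose to a smaller extent.

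UGT2B15 was measured at 443.6 and 398.6 CPM with vehicle, and at 198.7 and 184.8 CPM after 24 h of DHT. Its log2 fold change was -1.13 (SE 0.05, adjusted p = 2.81e-09), and the groups did not overlap. UGT2B17 was measured at 315.6 and 304.0 CPM with vehicle and at 164.8 and 158.3 CPM after DHT, a log2 fold change of -0.94 (SE 0.04, adjusted p = 9.47e-10), again with no overlap. For both genes each DHT library was below each library of the other 4 conditions.

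UGT2B28 moved the other way, from 5.63 and 6.09 CPM to 25.9 and 24.6 CPM, a log2 fold change of +2.11 (SE 0.08, adjusted p = 1.82e-10). UGT2B11 went from 59.8 and 55.1 CPM to 99.9 and 94.8 CPM (+0.76, SE 0.05, adjusted p = 3.68e-08). For both genes every DHT library exceeded every vehicle library. UGT2B10, which is nearly as close to UGT2B11 in coding sequence, was at 19.9 and 17.3 CPM with vehicle and 17.6 and 15.2 CPM after DHT, and did not pass the test (-0.18, adjusted p = 0.129). It was called lower with library size as the only scaling (adjusted p = 0.0453), without a filter on low counts (adjusted p = 0.0356) and with all 4 vehicle columns as samples (adjusted p = 0.036). UGT2B4 (+0.38, adjusted p = 0.0938) and UGT2B7 (-0.34, adjusted p = 0.394), each at or below 1.61 CPM in every ligand library, did not pass either.

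Thus 2 members rose and 2 fell after 24 h of DHT, beside 26.9% of all genes that rose and 23.2% that fell (50.0% called in either direction), so a call is common in this comparison. The median log2 fold change of the 7 genes was -0.18, against 0.0013 over all genes tested. The sum of UGT2B15 and UGT2B17 changed by -1.05 (SE 0.05) and the sum of UGT2B10, UGT2B11 and UGT2B28 by +0.76 (SE 0.05), both past the threshold, and the sum of all 7 by -0.72 (SE 0.04, adjusted p = 3.26e-08). In the order of levels per length UGT2B28 passed UGT2B10 to become the fourth, UGT2B11 went from 6.998% to 19.4% of the total, and UGT2B15 went from 51.6% to 38.5%.

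**Figure D2:**
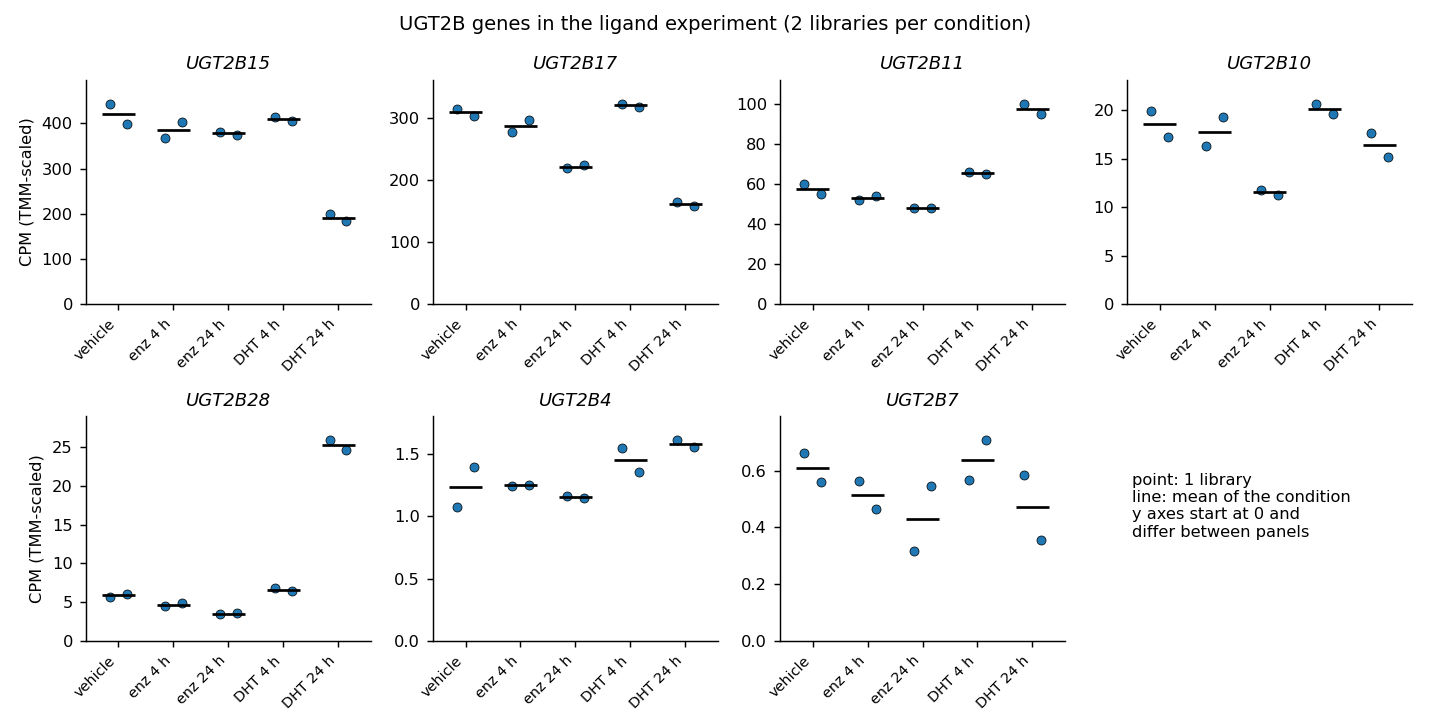
Level of each UGT2B gene (CPM, y axes starting at 0 and differing between panels) in the 10 ligand libraries, by condition. Points are libraries and lines are condition means of 2. UGT2B15 and UGT2B17 are lowest after 24 h of DHT (184.8 to 198.7 and 158.3 to 164.8 CPM), where UGT2B28 and UGT2B11 are highest.

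At 4 h little of this was visible. UGT2B15 stood at 413.5 and 405.1 CPM and UGT2B17 at 323.4 and 318.2 CPM with DHT, with log2 fold changes of -0.04 (adjusted p = 0.73) and +0.05 (adjusted p = 0.547). UGT2B28 was at 6.77 and 6.41 CPM (+0.18, adjusted p = 0.288). Only UGT2B11 passed the test, at 65.9 and 65.0 CPM (+0.19, SE 0.05, adjusted p = 0.0353), 1 member of 7 beside 4.66% of all genes called higher (6.77% in either direction), and that call was lost when vehicle replicate 2 (+0.13, adjusted p = 0.271), either DHT library or either 24 h enzalutamide library was left out.

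The later time was then compared with the earlier one within DHT, which does not involve the vehicle, so time in culture is part of the difference. Between 4 h and 24 h UGT2B15 (-1.09, SE 0.05), UGT2B17 (-0.99, SE 0.04) and UGT2B10 (-0.29, SE 0.09) fell, and UGT2B28 (+1.94, SE 0.07) and UGT2B11 (+0.57, SE 0.05) rose, 5 members of 7 called beside 49.8% of all genes (26.3% higher and 23.5% lower). The call for UGT2B10 (adjusted p = 0.0205) was lost without DHT 4 h replicate 1 (adjusted p = 0.111) or DHT 24 h replicate 2 (adjusted p = 0.156). KLK3, the androgen-induced gene of prostate-specific antigen, had reached 619.8 ± 15.9 CPM at 4 h from 256.5 ± 4.204 CPM with vehicle and stood at 2117 ± 31.1 CPM at 24 h (mean ± SD, n = 2), and all 6 of a list of androgen-induced genes were called higher at both times.

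Enzalutamide lowered the same 4 genes and UGT2B10 after 24 h, so that UGT2B15 and UGT2B17 were lower than vehicle with androgen and antiandrogen alike, while UGT2B11 and UGT2B28 took opposite directions with the 2 ligands. The comparisons share their vehicle libraries, and the values are given side by side for that reason.

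UGT2B17 went to 219.4 and 224.8 CPM with 24 h of enzalutamide, from 315.6 and 304.0 CPM with vehicle (-0.48, SE 0.04, adjusted p = 7.91e-07). UGT2B15 went to 380.5 and 375.1 CPM from 443.6 and 398.6 CPM, a change of -0.16 (SE 0.05, adjusted p = 0.0363). This was the smallest of the changes called, and it was lost without vehicle replicate 1 (-0.09, adjusted p = 0.285) or without either enzalutamide library (adjusted p = 0.0919 and 0.144).

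UGT2B28 went to 3.41 and 3.55 CPM from 5.63 and 6.09 CPM (-0.75, SE 0.09, adjusted p = 4.61e-05), and UGT2B10 to 11.8 and 11.3 CPM from 19.9 and 17.3 CPM (-0.70, SE 0.10, adjusted p = 0.000121). UGT2B11 stood at 47.9 and 47.8 CPM, below both vehicle libraries (-0.27, SE 0.05, adjusted p = 0.00107). The groups did not overlap for any of these 3 genes.

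In all, 5 members of 7 were called lower after 24 h of enzalutamide, beside 17.0% of all genes called lower (33.4% in either direction), and 0 were called higher. Their median log2 fold change was -0.48, against 0.01 over all genes, and no member reached a 2-fold change. UGT2B4 (-0.07, adjusted p = 0.852) and UGT2B7 (-0.52, adjusted p = 0.237) did not pass. Both sums passed, at -0.29 (SE 0.04) for UGT2B15 with UGT2B17 and -0.38 (SE 0.05) for UGT2B10, UGT2B11 and UGT2B28.

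At 4 h of enzalutamide UGT2B28 alone was called, at 4.49 and 4.82 CPM (-0.32, SE 0.09, adjusted p = 0.0321), beside 6.68% of all genes called lower (13.6% in either direction). Every other estimate lay between -0.27 and +0.04. The call for UGT2B28 was lost under DESeq2 (adjusted p = 0.0997) and without either vehicle library or either 4 h enzalutamide library (adjusted p between 0.0585 and 0.142). With all 4 vehicle columns as samples UGT2B11 (-0.15, adjusted p = 0.0248), UGT2B15 (-0.17, adjusted p = 0.0152) and UGT2B17 (-0.12, adjusted p = 0.0207) were called lower as well, 4 members in place of 1. Calls rose over the whole table too, with 1504 of 15595 genes called lower in that fit against 1039 of 15555 in the main fit. From 4 h to 24 h of enzalutamide UGT2B10 (-0.63, SE 0.10), UGT2B28 (-0.42, SE 0.10) and UGT2B17 (-0.38, SE 0.04) fell further, 3 members of 7 beside 12.9% of all genes called lower (24.6% in either direction). The UGT2B28 call there was lost without enzalutamide 24 h replicate 1 (adjusted p = 0.0533). UGT2B11 just missed the threshold there (-0.14, adjusted p = 0.0525) and was called lower under DESeq2 (adjusted p = 0.0478), with RLE factors (0.0375), without a filter on low counts (0.0354), with all 4 vehicle columns as samples (0.0338) and in 5 of the 10 fits that left out 1 library (0.0323 to 0.0406).

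Setting DHT against enzalutamide directly at 24 h, UGT2B28 was 7.25-fold higher with DHT (+2.86 on the log2 scale, SE 0.08), UGT2B11 2.04-fold higher (+1.03, SE 0.05) and UGT2B10 1.43-fold higher (+0.52, SE 0.10). UGT2B15 (-0.98, SE 0.05) and UGT2B17 (-0.46, SE 0.04) were lower with DHT. These were joined by UGT2B4, at 1.61 and 1.55 CPM with DHT and 1.16 and 1.15 CPM with enzalutamide (+0.45, adjusted p = 0.0417), the only call this gene received in 13 comparisons, and one that was lost without any of the 4 libraries compared, under DESeq2 (adjusted p = 0.213) and with the replicate number as a block (adjusted p = 0.0533). That gave 6 members of 7 called beside 64.9% of all genes (31.3% higher and 33.6% lower). At 4 h UGT2B28 (+0.50, SE 0.09), UGT2B11 (+0.31, SE 0.05) and UGT2B17 (+0.15, SE 0.04) were higher with DHT. These were 3 members beside 8.49% of all genes called higher (15.8% in either direction). The UGT2B17 call (adjusted p = 0.0173) was lost without enzalutamide 4 h replicate 1 or either DHT 4 h library. It was also lost with only the conditions compared (adjusted p = 0.0633 by edgeR). The sum of UGT2B15 and UGT2B17 did not pass there (+0.12, adjusted p = 0.101 by edgeR).

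The column headers carry prefixes that differ between treatments, and their meaning is not given. No prefix is shared between the 4 h and 24 h columns of a ligand, or between DHT and enzalutamide at 4 h. Those differences cannot be told apart from the prefix. Each treated condition was also set against the vehicle columns of its prefixes, summed by replicate number. For 24 h of DHT and both enzalutamide times this left the vehicle without a replicate, so only estimates are given. At 24 h of DHT they were -1.21 for UGT2B15, -0.95 for UGT2B17, +0.71 for UGT2B11 and +2.18 for UGT2B28. At 24 h of enzalutamide they were -0.72 for UGT2B10, -0.72 for UGT2B28, -0.45 for UGT2B17, -0.34 for UGT2B11 and -0.21 for UGT2B15. At 4 h of enzalutamide UGT2B28 gave -0.21 and UGT2B15 gave -0.24.

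**Figure D3:**
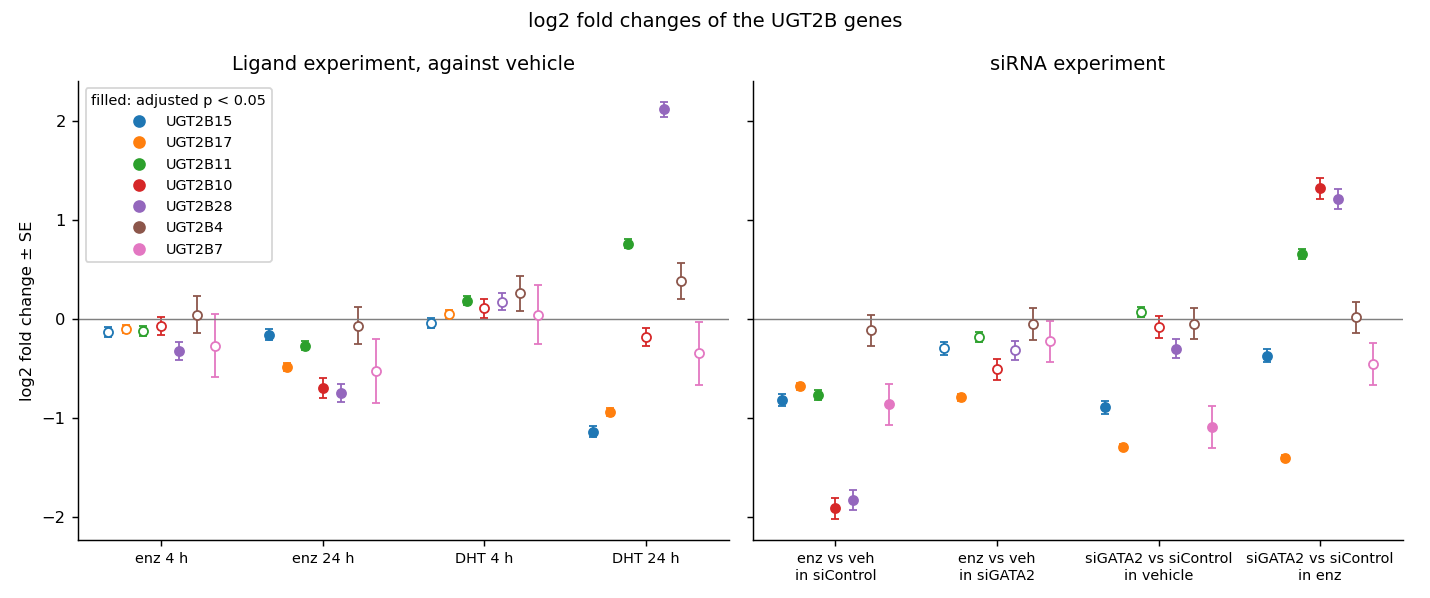
Log2 fold change ± SE of each UGT2B gene, with filled points for adjusted p below 0.05. Left, comparisons with vehicle in the ligand experiment, and right, comparisons between conditions of the siRNA experiment. UGT2B28 spans the widest range against vehicle in the ligand experiment, from -0.75 to +2.11. UGT2B17 is the only member called for enzalutamide in siGATA2 cells.

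The siRNA experiment asked whether GATA2 is needed for the effects of enzalutamide. GATA2 itself stood at 82.3 ± 4.72 RPKM in siControl and 51.4 ± 4.22 RPKM in siGATA2 cells with vehicle (log2 fold change -0.68, adjusted p = 3.12e-06), and at 129.3 ± 1.97 and 62.1 ± 2.37 RPKM with enzalutamide (-1.06, adjusted p = 1.07e-07, mean ± SD, n = 3). The knockdown was therefore partial, and GATA2 was itself higher with enzalutamide in siControl cells (+0.65). KLK3 went from 791.2 ± 25.1 to 24.1 ± 2.29 RPKM and TMPRSS2, another androgen-induced gene, from 63.2 ± 3.40 to 21.8 ± 1.39 RPKM with siGATA2 in vehicle. The macrophage and lysosome gene CD68, 1 of 3 immune markers, went from 3.73 ± 0.17 to 11.5 ± 0.93 RPKM, while the T cell marker CD3E was at 0 in all 12 libraries. The part of these shifts in the UGT2B values was not tested. All log2 fold changes of this experiment were taken on the scale log2(RPKM + 0.1), which understates the change of low genes.

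Knockdown of GATA2 lowered the DHT-conjugating pair, and UGT2B11 did not pass the test. UGT2B17 was at 28.96, 29.8 and 28.8 RPKM in siControl vehicle cells and at 11.9, 11.6 and 12.2 RPKM in siGATA2 vehicle cells (-1.29, SE 0.03, adjusted p = 5.53e-10). UGT2B15 was at 25.6, 28.8 and 26.7 RPKM and at 14.2, 14.1 and 15.4 RPKM (-0.89, SE 0.06, adjusted p = 7e-07). No siGATA2 library reached the lowest siControl library for either gene.

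UGT2B11 was at 17.1, 18.6 and 17.7 RPKM in siControl vehicle cells and at 18.0, 18.3 and 20.0 RPKM in siGATA2 vehicle cells, with overlapping ranges (+0.07, SE 0.05, adjusted p = 0.272). UGT2B10 was at 0.804, 0.814 and 0.7497 RPKM and at 0.729, 0.636 and 0.872 RPKM, also overlapping (-0.08, adjusted p = 0.564). UGT2B28 was at 2.17, 2.27 and 1.94 RPKM and at 1.72, 1.81 and 1.60 RPKM (-0.30, SE 0.10, adjusted p = 0.0228), a call lost without siControl replicate 1 or 2 or siGATA2 replicate 3 (adjusted p between 0.0649 and 0.0794).

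UGT2B7 fell from 0.283, 0.422 and 0.260 RPKM to 0.0742, 0.0741 and 0.146 RPKM (-1.09, SE 0.21, adjusted p = 0.00106), at levels that correspond to few reads. UGT2B4 lay between 0.00593 and 0.0630 RPKM in all 12 libraries, which is about 0.87 to 7.8 reads, so its estimates (-0.12 to +0.07 in the 5 siRNA comparisons, none called) rest on very few reads. With 4 members called lower and 0 higher, beside 31.4% of all genes called lower (55.6% in either direction), calls were again common in the whole table. The summed pair UGT2B15 and UGT2B17 changed by -1.09 (SE 0.04), whereas the sum of UGT2B10, UGT2B11 and UGT2B28 did not pass (+0.03, adjusted p = 0.608). UGT2B11 became the highest member per length in siGATA2 cells, with 39.3% of the total against 23.0% in siControl vehicle cells.

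**Figure D4:**
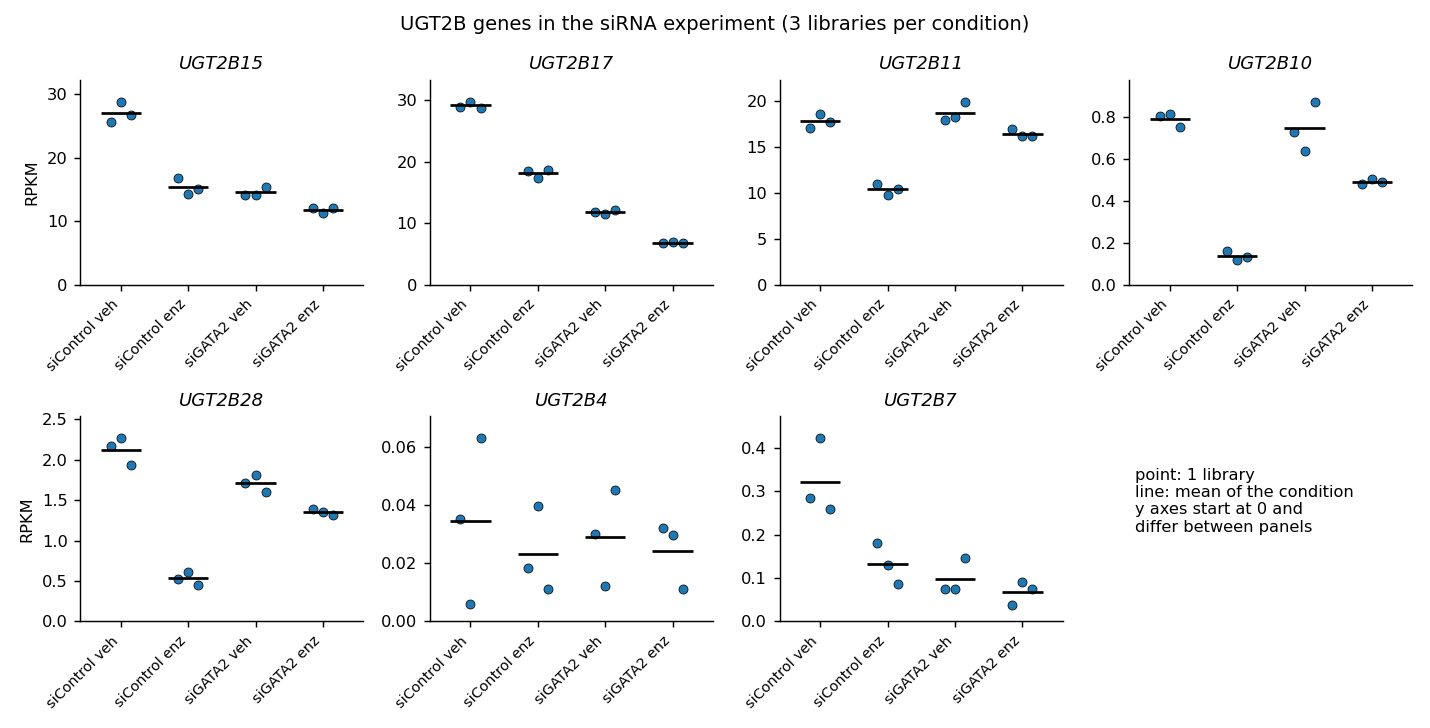
Level of each UGT2B gene (RPKM, y axes starting at 0 and differing between panels) in the 12 siRNA libraries, by siRNA and treatment (veh, vehicle and enz, enzalutamide). Points are libraries and lines are means of 3. UGT2B17 steps down in each condition from 29.2 to 6.82 RPKM, while UGT2B10, UGT2B11 and UGT2B28 are lowest in siControl cells with enzalutamide.

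In siControl cells 24 h of 25 μM enzalutamide lowered every member but UGT2B4. UGT2B10 went to 0.160, 0.119 and 0.133 RPKM from 0.804, 0.814 and 0.7497 RPKM (-1.91, SE 0.11, adjusted p = 3.92e-07). UGT2B28 went to 0.524, 0.615 and 0.453 RPKM from 2.17, 2.27 and 1.94 RPKM (-1.82, SE 0.10, adjusted p = 2.94e-07). These were the only 2 members past 2-fold on the log2(RPKM + 0.1) scale in this comparison, and each enzalutamide library lay far under each vehicle library.

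The 3 abundant members changed less. UGT2B15 was at 16.7, 14.3 and 15.0 RPKM with enzalutamide (-0.82, SE 0.06, adjusted p = 4.42e-06), UGT2B11 at 11.02, 9.75 and 10.5 RPKM (-0.77, SE 0.05, adjusted p = 1.66e-06) and UGT2B17 at 18.6, 17.3 and 18.7 RPKM (-0.68, SE 0.03, adjusted p = 1.76e-07), all without overlap with vehicle. UGT2B7 fell to 0.182, 0.130 and 0.0852 RPKM (-0.86, SE 0.21, adjusted p = 0.00694), where the added 0.1 lessens the change, since the mean RPKM itself went from 0.321 to 0.132. In all, 6 members of 7 were called lower, beside 24.4% of all genes (42.1% in either direction), with a median of -0.82 against -0.02 over all genes. The dose here was 25 μM, against 10 μM in the ligand experiment, so the sizes of the 2 experiments are not compared.

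In siGATA2 cells 1 of these changes remained past the threshold. UGT2B17 went from 11.9, 11.6 and 12.2 RPKM to 6.80, 6.97 and 6.69 RPKM (-0.79, SE 0.03, adjusted p = 7.13e-06). UGT2B10 (-0.51, adjusted p = 0.0879), UGT2B28 (-0.32, adjusted p = 0.258), UGT2B15 (-0.30, adjusted p = 0.1) and UGT2B11 (-0.18, adjusted p = 0.23) did not pass, although none of their groups overlapped. Only 0.191% of all genes were called lower in this comparison (0.412% in either direction), so a missing call says little by itself. With genes under a mean of 1 RPKM left out, UGT2B15 was called as well (adjusted p = 0.0342).

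The difference between the 2 enzalutamide effects was tested as an interaction, where a positive value means a smaller decrease in siGATA2 than in siControl cells. It passed for UGT2B28 (+1.51, SE 0.14, adjusted p = 3.95e-05), UGT2B10 (+1.40, SE 0.15, adjusted p = 0.000122), UGT2B11 (+0.58, SE 0.07, adjusted p = 0.00034) and UGT2B15 (+0.52, SE 0.09, adjusted p = 0.00225), 4 members of 7 beside 15.0% of all genes called higher (25.8% in either direction). For UGT2B17 the interaction was -0.11 (SE 0.05, adjusted p = 0.119), and it was called under median-of-ratios scaling (-0.15, adjusted p = 0.0499) and without siControl enzalutamide replicate 2 (-0.15, adjusted p = 0.0283). UGT2B7 did not pass (+0.64, adjusted p = 0.149). The summed pair UGT2B15 and UGT2B17 gave +0.24 (SE 0.06, adjusted p = 0.016) and the sum of UGT2B10, UGT2B11 and UGT2B28 gave +0.69 (SE 0.07, adjusted p = 7.07e-05).

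Within enzalutamide-treated cells, siGATA2 went with changes in both directions. UGT2B10 (+1.32, SE 0.11), UGT2B28 (+1.21, SE 0.10) and UGT2B11 (+0.66, SE 0.05) were higher than in siControl cells, at 0.479, 0.506 and 0.489 RPKM for UGT2B10, at 1.39, 1.35 and 1.32 RPKM for UGT2B28 and at 17.0, 16.2 and 16.2 RPKM for UGT2B11. UGT2B17 (-1.40, SE 0.03) and UGT2B15 (-0.37, SE 0.06, at 12.1, 11.3 and 12.1 RPKM) were lower. These 5 calls stand beside 54.5% of all genes called (26.3% higher and 28.1% lower). The sums moved by +0.72 for UGT2B10, UGT2B11 and UGT2B28 and by -0.84 for UGT2B15 and UGT2B17, both past the threshold.

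Ratios between members of one library do not depend on how that library was scaled. The ratio of UGT2B17 to UGT2B15 lay between 1.03 and 1.24 in the 6 siControl libraries and between 0.553 and 0.838 in the 6 siGATA2 libraries (geometric means 1.13 and 0.686). The ratio of UGT2B11 to UGT2B15 lay between 0.645 and 0.698 and between 1.27 and 1.44 (geometric means 0.670 and 1.34). For both ratios the siControl and siGATA2 libraries did not overlap. The ratio of UGT2B28 to UGT2B11 was lower with enzalutamide (geometric mean 0.0644 against 0.104 with vehicle), with overlapping ranges. Each group of 6 pools both levels of the other factor, and these ratios were chosen after the values had been seen, so they are given as a description with no test.

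**Figure D5:**
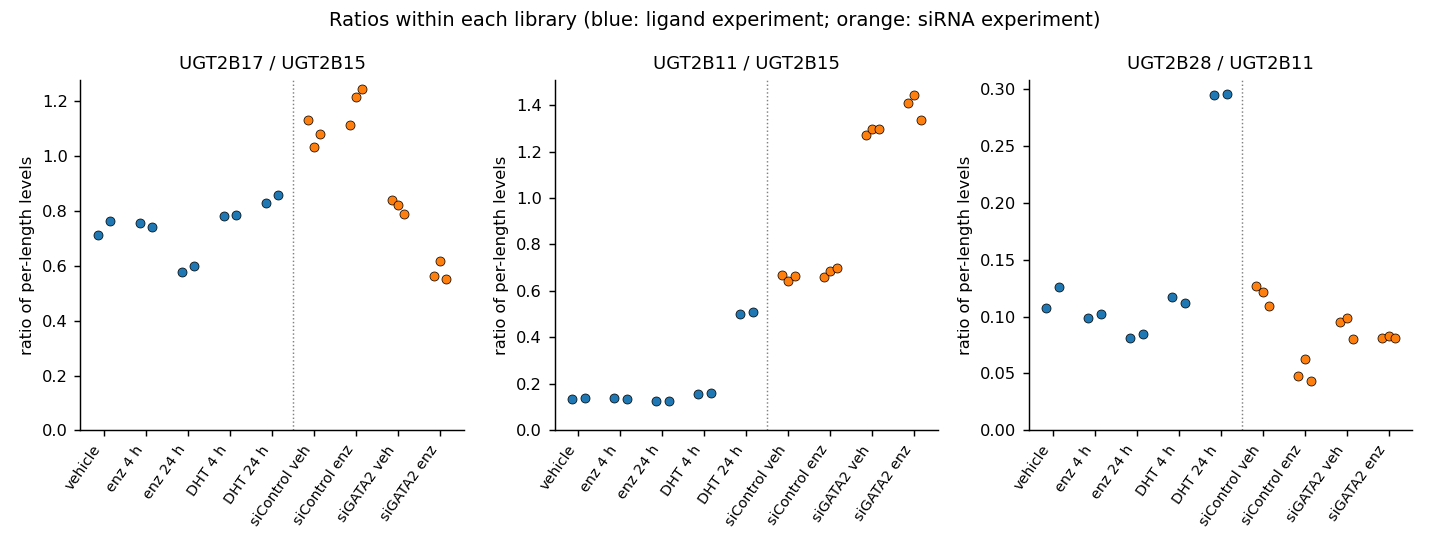
Ratios between UGT2B genes within each library of the ligand experiment (blue) and the siRNA experiment (orange), by condition, with 1 point per library. The ratio of UGT2B17 to UGT2B15 is 1.03 to 1.24 in siControl and 0.553 to 0.838 in siGATA2 libraries, and the ratio of UGT2B11 to UGT2B15 is at most 0.698 in siControl and at least 1.27 in siGATA2 libraries.

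The other genes of androgen disposal were counted by role, from lists of known pathway members. Their calls stand beside 26.9% of all genes called higher and 23.2% lower after 24 h of DHT (50.0% in either direction), and beside 55.6% called in either direction (31.4% lower) with siGATA2 in vehicle. Of 11 genes that supply UDP-glucuronic acid or cleave glucuronides, 10 were tested in the ligand experiment, and after 24 h of DHT 5 were called higher and 2 lower (50.0% of all genes called), with a median log2 fold change of 0.13. UGDH, the dehydrogenase that makes UDP-glucuronic acid, was called at 24 h of enzalutamide (107.4 ± 2.68 against 90.8 ± 2.38 CPM with vehicle, n = 2, log2 fold change +0.24), and UGP2, which makes UDP-glucose, was called lower at 24 h of DHT (-0.22). HK2, the hexokinase at the head of this supply, rose from 36.1 ± 0.82 CPM at 4 h to 75.9 ± 0.39 CPM at 24 h of DHT (+1.07). In siGATA2 vehicle cells 5 of the 11 were called higher and 3 lower, with UGP2 at +0.44. GUSB, the lysosomal enzyme that removes glucuronic acid, was called lower there (21.3 ± 0.81 to 17.5 ± 0.56 RPKM, n = 3, -0.28). SLC35D1, a carrier of UDP-glucuronic acid into the endoplasmic reticulum, was at or below 0.0564 RPKM on average in every siRNA condition.

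Of 15 other UGT genes 5 passed the filter in the ligand experiment, and 1 of these was called higher and 1 lower after 24 h of DHT (50.0% of all genes called). UGT8, which makes galactolipids, was the one higher (1.54 ± 0.09 against 0.963 ± 0.15 CPM, n = 2). In siGATA2 vehicle cells 0 of the 15 were called higher and 3 lower, among them UGT8 (2.98 ± 0.26 to 1.58 ± 0.06 RPKM, n = 3, -0.87). The UGT1A genes share exons, so their values are uncertain.

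Among 6 conjugate exporters, 4 were tested in the ligand experiment, and 2 rose and 2 fell after 24 h of DHT, beside 50.0% of all genes called. ABCC4, a pump for conjugated steroids and other anions, rose from 146.4 ± 3.88 to 535.4 ± 2.79 CPM (n = 2, +1.87). ABCG2 fell from 1.67 ± 0.07 to 0.542 ± 0.01 CPM (-1.62). In siGATA2 vehicle cells 4 of the 6 exporters were called higher and 1 lower, beside 55.6% of all genes called, with ABCC4 at +0.32.

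Of 8 sulfation genes, the other route of steroid conjugation, 4 were tested in the ligand experiment, with 2 called higher and 2 lower after 24 h of DHT (50.0% of all genes called), and 6 in the siRNA experiment, with 3 called higher and 1 lower with siGATA2 in vehicle (55.6% of all genes called). SULT1A1, a sulfotransferase for phenols, rose from 12.2 ± 0.44 to 28.4 ± 0.09 RPKM there, and SULT2B1, which sulfates hydroxysteroids, fell from 10.3 ± 0.30 to 5.46 ± 0.46 RPKM (n = 3).

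Of 16 androgen reductases and oxidoreductases, 9 were tested in the ligand experiment, with 3 called higher and 1 lower after 24 h of DHT (50.0% of all genes called), and 14 in the siRNA experiment, with 0 called higher and 6 lower in siGATA2 vehicle cells (31.4% of all genes called lower). The one lower with DHT was AKR1C3, which makes testosterone, at 0.243 ± 0.02 CPM with vehicle and 0.0840 ± 0.01 CPM with DHT (n = 2), a level of few reads in a gene with close copies. RDH16, a retinol and 3-hydroxysteroid dehydrogenase, was among the 6 (0.957 ± 0.19 to 0.252 ± 0.04 RPKM, n = 3, -1.57). HSD17B6, which oxidises androstanediol back towards DHT, was not called in any of the 13 comparisons.

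Of 15 transcription factors linked to UGT2B promoters, 8 were tested in the ligand experiment, with 1 called higher and 2 lower after 24 h of DHT, beside 50.0% of all genes called. The lower ones were GATA2 (-0.33, 182.7 ± 6.26 against 229.9 ± 10.3 CPM) and FOXA1 (-0.24, 421.4 ± 0.85 against 497.0 ± 3.41 CPM, n = 2). FOXA1 was not called in any siRNA comparison, at means of 138.9 to 144.1 RPKM.

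Genes whose level followed a member most closely over the 10 ligand libraries were listed as a description, among 12302 genes, by Pearson correlation of log2 levels. The libraries share their treatments and depths. The 5 closest to UGT2B15 were BCHE (0.998), C1R (0.993), SLC22A10 (0.991), TSPAN3 (0.989) and DDC (0.989). In the 12 siRNA libraries DDC (0.955) and BCHE (0.885) stayed close to it, and C1R (-0.79) and TSPAN3 (-0.71) turned over. Among the 5 closest to UGT2B17 were SDC2 (0.990), PAK1 (0.983), ANP32E (0.982) and DPYSL2 (0.977), these 4 with siRNA values from 0.186 (DPYSL2) to 0.852 (SDC2). UGT2B11 was closest to PRPS1 (0.995), EIF2S1, MCCC2, CMC2 (0.993) and PRDX6 (0.993), and of these PRPS1 (0.907), EIF2S1 (0.909) and CMC2 (0.885) stayed close in the siRNA libraries while MCCC2 (-0.22) and PRDX6 (-0.37) did not. Between members, UGT2B15 with UGT2B17 gave 0.912 in both experiments and UGT2B11 with UGT2B28 gave 0.984 and 0.937, while UGT2B11 with UGT2B10 gave 0.343 in the ligand and 0.980 in the siRNA libraries. These pairs also share the most sequence.

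Members were also counted by a rule on size, a fold above 2 together with a p under 0.05 before adjustment. That rule called UGT2B28 and UGT2B15 after 24 h of DHT (2 members, beside 5.86% of all genes) and from 4 h to 24 h of DHT (2, beside 4.54%), and UGT2B28 and UGT2B11 for DHT against enzalutamide at 24 h (2, beside 11.8%). In the siRNA experiment it called UGT2B10 and UGT2B28 for enzalutamide in siControl cells (2, beside 2.13%) and for the interaction (2, beside 1.81%). It called UGT2B17 and UGT2B7 for siGATA2 in vehicle (2, beside 5.64%), and UGT2B10, UGT2B28 and UGT2B17 for siGATA2 in enzalutamide (3, beside 5.78%). No member passed it at 4 h (0.752% of all genes) or 24 h of enzalutamide (2.89%), at 4 h of DHT (1.20%), from 4 h to 24 h of enzalutamide (2.30%), for DHT against enzalutamide at 4 h (1.83%) or for enzalutamide in siGATA2 cells (0.191%).

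Over the 13 comparisons UGT2B28 was called in 11, UGT2B17 in 10, UGT2B11 in 9, UGT2B15 in 8, UGT2B10 in 7, UGT2B7 in 2 and UGT2B4 in 1. The p-values measure the spread between libraries of one cell line. The paper speaks of 2 biological replicates in the ligand experiment, where the labels number 4 for vehicle and 2 samples were analysed. The labels only number the siRNA libraries as well, and their spread may be technical.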

How the data were processed

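Poly(A) RNA of LNCaP cells was sequenced with a directional kit. Per the submitters' processing notes reads were handled with TopHat2 2.0, Partek and hg19. The deposited ligand tables hold estimated counts per gene that the authors made, of which 56.0% to 62.6% of the values above 0 in a column were whole. The deposited siRNA tables, although named as read counts, hold RPKM values that the authors computed. Estimated counts were rounded and tested with edgeR 4.0.16 (quasi-likelihood, TMM factors, filterByExpr, 5 conditions in one fit). RPKM values were tested with limma 3.58.1 (trend) on log2(RPKM + 0.1) with genes kept where 3 or more libraries exceeded 0, in place of the planned count test. A call is a Benjamini-Hochberg adjusted p below 0.05 over all genes tested. Standard errors of edgeR estimates are approximate, the log2 fold change over the square root of F. Genes missing from one ligand table (2232) were set to 0 there. R 4.3.3, DESeq2 1.42.0, Python 3.11.15, SciPy 1.17.1, matplotlib 3.10.9 and MAFFT 7.526 were also used, and the tests were tested on simulated data. Members and gene lists were chosen with earlier results of these data known, and the ratios within a library were added after the values were seen. Named were the members, GATA2, KLK3, TMPRSS2, preset pathway genes, listed genes called past 2-fold in some comparison, and the 5 genes most alike to each of the 3 most abundant members, and some genes of these sets are not reported here. CD3E was named beside CD68 as a marker at 0. Same-numbered replicates were checked for pairing. The deviations from condition means correlated between -0.103 and 0.0647 over all tested genes, so the numbers were not taken to pair the samples.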

Additional observations from a re-analysis of the deposited data

Results flagged for a closer look

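A set of 12 results was marked for a closer look. In these a level differed between the times of a treatment, or an effect of enzalutamide differed between siRNA groups. Each rests on a test of that difference, on the log2 scale. Time in culture and the header prefix also differ between the times, and cannot be told apart from the treatment there. From 4 h to 24 h of enzalutamide, UGT2B10 (-0.63), UGT2B17 (-0.38) and UGT2B28 (-0.42) changed. From 4 h to 24 h of DHT, UGT2B10 (-0.29), UGT2B11 (0.57), UGT2B15 (-1.09), UGT2B17 (-0.99) and UGT2B28 (1.94) changed. The effect of enzalutamide differed between siGATA2 and siControl cells for UGT2B10 (1.40), UGT2B11 (0.58), UGT2B15 (0.52) and UGT2B28 (1.51), in each case a smaller decrease in siGATA2 cells. UGT2B17 is absent from this last set, and its own interaction did not pass (-0.11, adjusted p = 0.119 by limma). No condition had the 4 libraries needed to look for a single library far from the rest.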

How the results depend on the processing

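With 2 or 3 libraries per condition, alternatives to the normalization, filter, model, vehicle columns, pseudocount and libraries used left 1707 member results on their side of the threshold and in their direction. Of the others 36 lost and 30 gained a call, and 32 changed sign, all 32 of results that were either not called or replaced by a sum of copies. No scaling moved the median of all genes by over 0.1.

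The number of members called at 4 h of enzalutamide (1) was 0 under DESeq2, with only the conditions compared and with copies summed, 2 without a filter on low counts and 4 with every vehicle column as a sample, and 0 to 2 with 1 library left out. At 4 h of DHT it was 0 with copies summed and 0 to 1 with 1 library left out. From 4 h to 24 h of enzalutamide it was 5 with copies summed, where the call of a sum counts once for each member in it. Both sums were called lower there (adjusted p = 0.0153 for UGT2B15 with UGT2B17 and 0.0029 for UGT2B10, UGT2B11 and UGT2B28, by edgeR). UGT2B11 itself was called under several other alternatives. For enzalutamide in siGATA2 cells it was 2 with genes under a mean of 1 RPKM left out. It was also 2 with copies summed, both from the single sum of UGT2B15 and UGT2B17 (-0.50, adjusted p = 0.00152 by limma). The cause was not tested. Calls over all genes moved with these settings too. At 4 h of enzalutamide 1039 of 15555 genes were called lower in the main fit. Under DESeq2 the number was 917 of 21955, and with only the conditions compared it was 380 of 15035. Without a filter on low counts it was 1398 of 21955, and with every vehicle column as a sample 1504 of 15595.

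A rule of more than 2-fold with unadjusted p below 0.05 called 0 members at 4 h of enzalutamide, 0 at 24 h, 0 at 4 h of DHT, 0 from 4 h to 24 h of enzalutamide, 0 for DHT against enzalutamide at 4 h and 0 for enzalutamide in siGATA2 cells. It called 2 at 24 h of DHT, 2 from 4 h to 24 h of DHT, 2 for DHT against enzalutamide at 24 h, 2 for enzalutamide in siControl cells, 2 for siGATA2 in vehicle, 3 for siGATA2 in enzalutamide and 2 for the interaction, by its stricter construction.

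With copies summed, the sign turned in some places where the estimate of a sum stood in for that of a member. This held for UGT2B17 at 4 h of DHT (sum -0.0021), and for UGT2B10 at 24 h of DHT (sum 0.76) and from 4 h to 24 h of DHT (sum 0.59). It also held for UGT2B10 and UGT2B28 with siGATA2 in vehicle (sum 0.033) and for UGT2B17 in the interaction (sum 0.24). These are values of the sums, which hold the other copies too. UGT2B11 alone gave +0.76 at 24 h of DHT and +0.57 from 4 h to 24 h. With vehicle columns of the same header prefix, UGT2B7 turned at 4 h of enzalutamide (0.95) and of DHT (-0.011).

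With 1 library left out, estimates crossed 0 for UGT2B10 at 4 h of enzalutamide (-0.21 to 0.042) and with siGATA2 in vehicle (-0.19 to 0.015), for UGT2B15 at 4 h of DHT (-0.11 to 0.041) and from 4 h to 24 h of enzalutamide (-0.091 to 0.031), and for UGT2B7 at 4 h of DHT (-0.12 to 0.20), from 4 h to 24 h of enzalutamide (-0.70 to 0.080) and for DHT against enzalutamide at 24 h (-0.26 to 0.63). For UGT2B4 they did so at 4 h (-0.16 to 0.22) and 24 h (-0.28 to 0.097) of enzalutamide, for enzalutamide in siControl (-0.28 to 0.033) and siGATA2 cells (-0.15 to 0.039), for siGATA2 in vehicle (-0.21 to 0.10) and in enzalutamide (-0.052 to 0.11) and for the interaction (-0.083 to 0.23). A lone remaining ligand library is assumed to vary like the other conditions. None of these estimates was called.

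With the replicate number as a block, the count for DHT against enzalutamide at 24 h went from 6 to 5, as UGT2B4 was lost, and no other count changed. Neither the labels nor the study's methods say what the numbers share. Over expressed genes alone, a check added after the data were seen, the 3 numbers of siControl and siGATA2 enzalutamide libraries correlated at 0.113, 0.241 and 0.148, while other siRNA pairs ranged from -0.342 to 0.28.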
